A study of Mus musculus with 8 samples.

Results

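A3 differentiating spermatogonia were compared with A1 differentiating spermatogonia, a step that runs from the early to the middle part of spermatogonial differentiation. The comparison took all libraries labelled A1 (3 libraries) and all labelled A3 (3 libraries), 6 of the 8 bulk RNA-seq libraries of the series. The remaining 2 libraries came from undifferentiated Aal spermatogonia, and their values are given beside those of A1 and A3 for reference. The question was which functions change between these stages. Gene tests, list counts and shares by chromosome and gene length were also obtained without A1-3, the third A1 library, which carried transcripts of somatic cells. Promoter motif shares were not, and most list counts below are those with all libraries. Sertoli cell transcripts were high in all A3 libraries too.

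All groups came from CD1:Uchl1-eGFP mice, in which the *Uchl1* promoter drives EGFP. In all of them spermatogenesis was synchronized by oral WIN 18,446, an inhibitor of retinoic acid (RA) synthesis, at 100 µg per g of body weight, begun on postnatal day 1 and given for 10 consecutive days. RA was then injected under the skin on day 11, as 10 µl of a 10 µg/µl solution, to start differentiation in the A1 and A3 groups. Testes of at least 5 pups of a litter were pooled per preparation, dissociated with trypsin and sorted for EGFP+ cells. The *Uchl1* promoter marks spermatogonia as a whole and does not separate one stage from another, so the stage rests on the timing of the synchronized wave. The day on which A3 cells were collected is not given in the labels. A3 follows A1 in the synchronized wave. Stage, age of the pups and time since the WIN 18,446 and RA doses therefore cannot be told apart.

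RA is the signal that moves undifferentiated spermatogonia into differentiation. Cells that have received it become A1 spermatogonia and then divide by mitosis through the later A, intermediate and B types before they enter meiosis. RA acts through nuclear receptors that bind DNA at paired half-sites, and it induces the enzyme that degrades it, CYP26A1. DMRT-family proteins, the KIT receptor and the SOHLH transcription factors are among the best known regulators of this interval, whereas factors such as POU5F1 and NEUROG3 belong to the progenitor state that precedes it.

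The FPKM values (fragments scaled to gene length and library size) were traced back to whole reads, which gave library totals of 18276164 to 27316451 reads over A1 and A3. At the gene of median count the counting error was 4.87% to 5.85%. Of the reads of these 6 libraries, 34.1% to 34.4% fell in the 5736 genes of the table. The table lacks genes with an intermediate change at this step. No gene had a ratio of mean FPKM in A3 to mean FPKM in A1 between 1.24 and 1.46 or between 0.696 and 0.810, whereas 3864 genes lay between these gaps, 800 above them and 1072 below them. For A3 over Aal the same intervals held 497 and 294 genes, and in pairs of 1 A3 and 1 A1 library they held 757 to 992. With the mean of A1 taken without A1-3, 486 genes lay in them, and A1 over Aal had gaps of its own, from 1.26 to 1.49 and from 0.721 to 0.828. How genes entered the table is not given in the sources used here, so counts, shares, medians and adjusted p-values describe these genes and not the transcriptome.

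The labelled cell type was checked with its markers. *Uchl1*, which encodes a deubiquitinating enzyme, had 7270, 5058 and 4048 FPKM in A1 and 5569, 5280 and 5912 FPKM in A3. *Dazl*, which encodes an RNA-binding protein of germ cells, had 374, 395 and 370 FPKM in A1 and 370.0, 437 and 401 FPKM in A3. *Sohlh2*, a transcription factor of differentiating spermatogonia, had 65.8, 81.6 and 79.9 FPKM in A1 and 76.7, 83.3 and 76.5 FPKM in A3. All 3 germ cell markers were abundant in every library, and their adjusted p-values in limma were 0.844, 0.495 and 0.684. Since the cells were sorted for EGFP driven by the *Uchl1* promoter, the level of *Uchl1* is no independent check. *Ddx4*, *Sall4*, *Sohlh1*, *Kit*, *Stra8* and *Dmrt1* were not analysed here.

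Transcripts of Sertoli cells, the supporting cells of the tubule, were present at unequal levels. Their list had 20 genes in the table, and its summed level was 79.9 and 82.4 FPKM in A1-1 and A1-2, 550 FPKM in A1-3, and 518, 385 and 280 FPKM in A3-1, A3-2 and A3-3. A1-3 and all A3 libraries were thus well above A1-1, A1-2 and both Aal libraries (69.1 and 49.5 FPKM). In 19 of the 20 genes every A3 library exceeded A1-1 and A1-2, and in 19 A1-3 did. The Sertoli markers *Sox9*, *Wt1*, *Amh* and *Gata4* were not analysed here, and *Fshr*, the receptor for follicle-stimulating hormone, was at most 0.186 FPKM in A1-1 and A1-2 and 0.873 to 1.39 FPKM in A1-3 and A3. A1-3 differed from A3 in the list for peritubular myoid and stromal cells (8 genes), with 61.3 FPKM against 12.9 and 9.56 FPKM in the other A1 libraries and 10.4 to 13.6 FPKM in A3. In bulk samples, fewer cells of a type and less RNA per cell cannot be told apart.

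**Figure D1:**
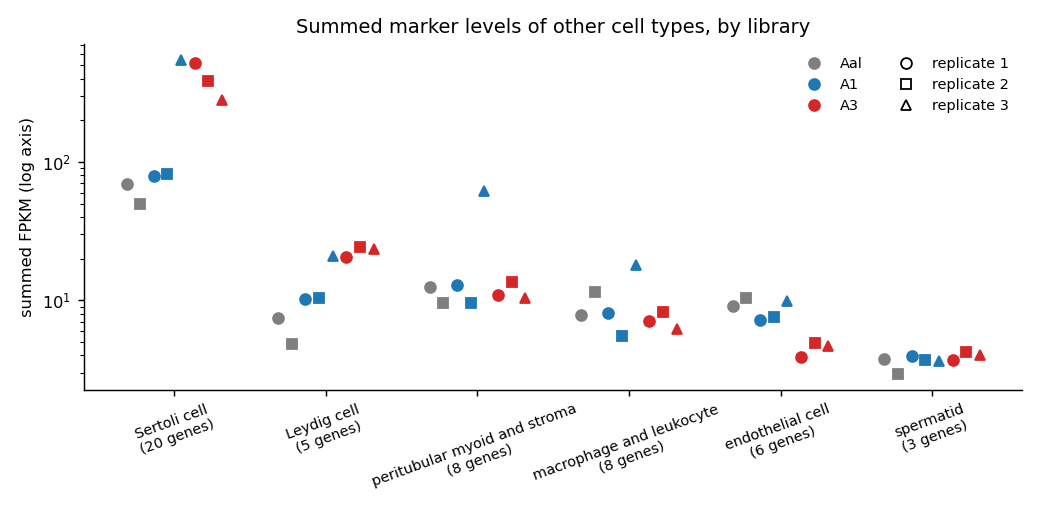
Summed FPKM (log axis) of marker genes of other testis cell types in each library; colours give the group and symbols the replicate number. The Sertoli cell sum was 550 FPKM in A1-3 and 280 to 518 FPKM in A3, against 79.9 and 82.4 FPKM in the other A1 libraries, and the myoid and stromal sum was high in A1-3 (61.3 FPKM).

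Few genes changed strongly between A1 and A3, and more were lower in A3 than higher. Called genes had an adjusted p no higher than 0.01 together with a log2 fold change, computed on FPKM + 1, beyond 1 in either direction. Of 4590 genes tested, 69 were called (1.50%), 22 higher in A3 (0.479%) and 47 lower (1.02%). At an adjusted p of at most 0.05 with any fold change, 892 genes passed (19.4%), 365 higher (7.95%) and 527 lower (11.5%). Over all genes tested the median log2 fold change was 0.01. The libraries of A1 and A3 did not overlap in 38.1% of the genes tested. Two-sided limma tests with Benjamini-Hochberg adjustment over all genes tested gave these counts. Single libraries moved them: 32 genes were called without A1-2, 111 without A1-3, 107 without A3-1, 26 without A3-2 and 32 without A3-3. Of the 69 called genes, 20 were called in all 6 fits that left out a library, 5 higher and 15 lower. None of the 69 changed sign in any alternative. The libraries of A1 and A3 did not overlap in any called gene, so leaving out a library could not change a sign.

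**Figure D2:**
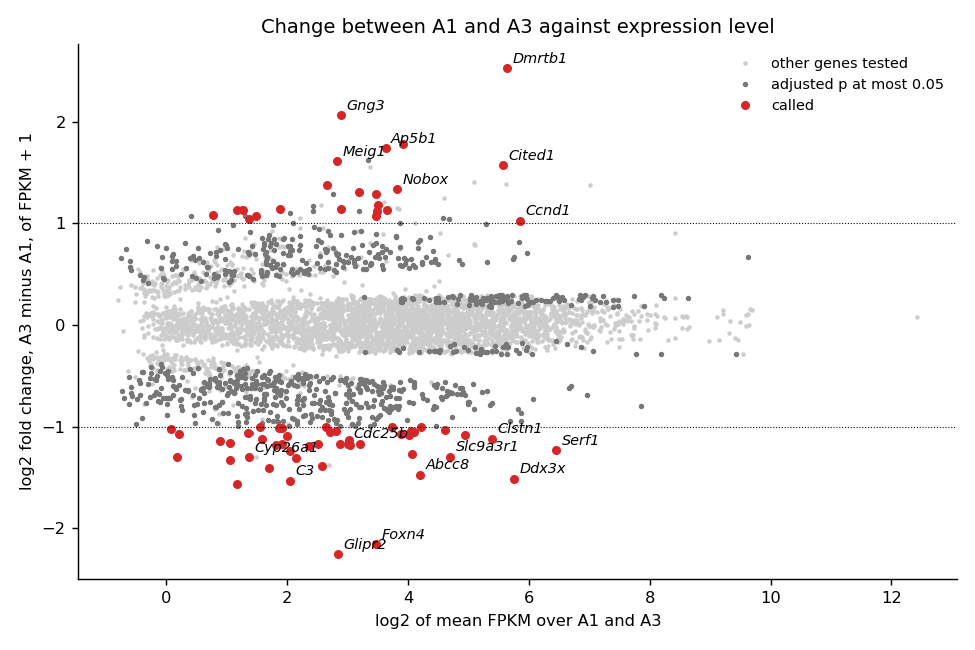
Log2 fold change between A1 and A3 (of FPKM + 1) against the log2 of mean FPKM for the 4590 genes tested; red points are the 69 called genes and dark grey points pass an adjusted p of at most 0.05. The table holds no gene at some ratios of mean FPKM above and below 1. The vertical axis uses FPKM + 1, so genes of low FPKM can lie within the matching bands. *Dmrtb1* and *Glipr2* had the most extreme changes of the called genes, 2.52 and -2.26.

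The gene with the largest rise was *Dmrtb1*, a transcription factor of the DMRT family that is required for the passage from spermatogonial mitosis to meiosis. It had 17.4, 13.3 and 11.7 FPKM in A1 and 77.7, 81.1 and 97.8 FPKM in A3, a 6.04-fold difference of the means. Its log2 fold change was 2.52 (SE 0.14, adjusted p = 0.000196 in limma), and it was called in all 6 fits that left out a library. The Aal libraries had 11.7 and 2.40 FPKM, so that the level in A1 lay near that of the higher Aal library. *Dmrtb1* is on chromosome 4 at 107348895 to 107356835 (mm9, minus strand).

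*Cited1*, a transcriptional co-regulator without a DNA-binding domain, rose from 22.3, 21.6 and 26.1 FPKM in A1 to 68.5, 66.3 and 79.2 FPKM in A3 (log2 fold change 1.57, SE 0.09, adjusted p = 0.000196 in limma). In Aal it had 4.80 and 2.88 FPKM, so each successive stage lay above the one before with no overlap. *Nobox*, a homeobox factor best known from oocytes, had 5.69, 9.24 and 8.09 FPKM in A1 and 19.5, 20.5 and 21.8 FPKM in A3 (log2 fold change 1.34, SE 0.15, adjusted p = 0.00169). Its Aal values, 1.29 and 1.22 FPKM, were also the lowest of the groups. *Cited1* was called in all 6 fits that left out a library and *Nobox* in 4.

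*Gng3*, a G protein gamma subunit, had 1.98, 1.896 and 2.93 FPKM in A1 and 12.8, 12.4 and 12.3 FPKM in A3 (log2 fold change 2.06, SE 0.13, adjusted p = 0.000297 in limma). The A3 libraries lay close together, and all were above the A1 libraries. The gene overlaps *Bscl2* on the other strand, and whether counting used strand is not stated. *Meig1*, a gene needed for the assembly of the sperm manchette, had 4.24, 2.28 and 2.56 FPKM in A1 and 9.57, 10.8 and 13.0 FPKM in A3 (log2 fold change 1.61, adjusted p = 0.0021). It was called in 3 of the 6 fits that left out a library. *Ccnd1*, which encodes cyclin D1, rose from 36.4, 39.3 and 36.7 FPKM to 64.7, 81.7 and 87.1 FPKM (log2 fold change 1.03, adjusted p = 0.00123), with 22.7 and 20.1 FPKM in Aal. *Ccnd1* overlaps *Oraov1* on the other strand and was called in 4 of the 6 fits that left out a library.

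The other large rises came from genes of varied function, many of which lost the call when a library was left out. *Ap5b1*, a subunit of an adaptor complex of the endosome, had a log2 fold change of 1.74. *Tbkbp1*, an adaptor that binds the kinase TBK1, and *Flrt1*, an adhesion receptor, had log2 fold changes of 1.29 and 1.14. *Fam78a*, *Gm1141*, *Gm9112* and *D930048N14Rik* had 1.13, 1.18, 1.31 and 1.12. *Mir6374* and *Mir5100*, rows of the table named for microRNAs, had 1.78 and 1.14 from only 8 to 69 and 4 to 19 reads per library. Of the 6 fits that left out a library, *Gm9112* and *Mir5100* were called in 1, *Mir6374*, *Flrt1* and *D930048N14Rik* in 2, *Ap5b1* and *Tbkbp1* in 3, *Fam78a* in 4 and *Gm1141* in 6. *Flrt1* and *Fam78a* overlap other annotated genes. Among the other called rises, named here after their values were seen, were *Gdf11*, a growth factor of the TGF-beta family (log2 fold change 1.07), and *Hmg20b*, a subunit of a histone demethylase complex (1.08).

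The largest falls were those of *Glipr2* and *Foxn4*. *Glipr2*, a protein of the Golgi membrane, had 12.5, 12.02 and 13.1 FPKM in A1 and 2.12, 1.73 and 1.67 FPKM in A3, a 6.82-fold difference (log2 fold change -2.26, SE 0.11, adjusted p = 0.000196 in limma). Its Aal values were 6.21 and 6.10 FPKM, between those of A1 and A3. *Foxn4*, a forkhead transcription factor known from retinal progenitors, had 13.6, 22.0 and 20.9 FPKM in A1 and 2.93, 3.46 and 3.75 FPKM in A3 (log2 fold change -2.15, SE 0.18, adjusted p = 0.000839). It had 0.293 and 0.577 FPKM in Aal, so A1 stood above both other groups. Both genes were called in all 6 fits that left out a library.

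*Cyp26a1*, the enzyme that degrades RA, showed the same order of groups at a lower level. It had 3.52, 4.09 and 4.67 FPKM in A1 and 1.04, 0.98 and 1.18 FPKM in A3 (log2 fold change -1.30, SE 0.13, adjusted p = 0.000977 in limma). The Aal libraries had 0.465 and 0.201 FPKM. Every A3 library lay below every A1 library and above both Aal libraries. The counts behind these values were 35 to 199 reads per A1 or A3 library.

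Promoter windows are shown for the gene with the largest rise, the 2 genes with the largest falls and the gene of the RA pathway. Each is the run of 250 bases before the most upstream start that RefSeq lists for the gene (GRCm38.p6, a different build from the mm9 of the expression table), written 5′ to 3′ on the strand of the gene. Capitals in *Cyp26a1* mark the half-sites of a direct repeat bound by RA receptors, AGTTCA with 5 bases between its copies, here on the opposite strand. Capitals in the other windows mark CAGCTG, an E-box, and GGGCGG, the core of the GC box, on either strand. *Dmrtb1* has 2 listed starts and neither motif in the window shown.
*Cyp26a1*, chr19:37697558-37697807, plus strand: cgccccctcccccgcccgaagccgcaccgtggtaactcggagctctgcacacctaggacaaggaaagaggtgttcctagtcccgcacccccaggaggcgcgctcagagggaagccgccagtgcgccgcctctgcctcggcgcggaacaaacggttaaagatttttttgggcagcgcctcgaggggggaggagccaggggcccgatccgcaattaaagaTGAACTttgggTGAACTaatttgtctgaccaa
*Foxn4*, chr5:114273762-114274011, minus strand: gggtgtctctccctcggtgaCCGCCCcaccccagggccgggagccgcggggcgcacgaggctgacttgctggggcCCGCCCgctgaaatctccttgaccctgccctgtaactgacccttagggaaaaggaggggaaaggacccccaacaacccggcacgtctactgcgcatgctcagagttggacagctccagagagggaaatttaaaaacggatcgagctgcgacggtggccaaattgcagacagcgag
*Glipr2*, chr4:43957452-43957701, plus strand: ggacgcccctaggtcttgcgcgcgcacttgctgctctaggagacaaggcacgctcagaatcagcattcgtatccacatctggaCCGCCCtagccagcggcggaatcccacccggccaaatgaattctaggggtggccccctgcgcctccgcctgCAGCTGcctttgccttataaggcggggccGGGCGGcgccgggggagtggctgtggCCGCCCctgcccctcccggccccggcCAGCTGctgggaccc
*Dmrtb1*, chr4:107684231-107684480, minus strand: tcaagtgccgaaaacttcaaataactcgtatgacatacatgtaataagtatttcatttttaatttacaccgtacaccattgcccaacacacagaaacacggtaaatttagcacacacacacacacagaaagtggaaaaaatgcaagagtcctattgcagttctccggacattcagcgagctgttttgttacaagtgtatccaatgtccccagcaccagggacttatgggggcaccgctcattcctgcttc

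The repeat in *Cyp26a1* begins 32 bases before the start. It occurred in 6 of 27025 RefSeq promoter windows (0.0222%) and in 2 of the 4350 of genes in the table (0.0460%). The exact string was chosen after the data were seen, so its rarity and its match in *Cyp26a1* follow from that choice. Motif matches are descriptions of letters and not of bound sites. CAGCTG, a palindrome, occurred in 4 of the 16 windows of called genes that were higher in A3, in 4 of the 37 windows of those that were lower (10.8%), and in 13.3% of the 4350 windows of genes in the table. GGGCGG, searched on both strands, was found in 11 of the 16, in 24 of the 37 and in 56.4% of the table. The share with CCAAT was 43.8%, 24.3% and 36.3%, and that with TATAAA 12.5%, 8.11% and 6.39%. AGGTCA, the half-site of many nuclear receptors, occurred in 6.25%, 13.5% and 9.93%. The E-box CACGTG occurred in 6.25%, 2.70% and 7.89%, and CNCCTCAG in 6.25%, 2.70% and 7.54%. TGACGTCA, the cAMP response element, was in none of the 53 windows of called genes and in 2.39% of the table. No test was made of these shares.

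Several abundant transcripts also fell. *Ddx3x*, an X-linked RNA helicase that acts in translation, had 75.4, 81.3 and 85.4 FPKM in A1 and 30.3, 27.9 and 25.0 FPKM in A3, a 2.91-fold difference (log2 fold change -1.51, SE 0.08, adjusted p = 0.000196 in limma). Its Aal values of 71.3 and 71.0 FPKM lay just under those of A1. Close copies of *Ddx3x* exist on the Y chromosome and on an autosome, and how reads shared with them were counted is not stated. *Abcc8*, the sulphonylurea receptor subunit of a potassium channel, had 25.1, 29.5 and 27.7 FPKM in A1 and 7.47, 10.0 and 10.4 FPKM in A3 (log2 fold change -1.47, adjusted p = 0.000839). *Serf1* had 129, 130.3 and 109.8 FPKM in A1 and 63.4, 45.9 and 47.4 FPKM in A3 (-1.23, adjusted p = 0.00123). *Slc9a3r1*, a scaffold protein that links membrane transporters to the cytoskeleton, had 34.5, 41.0 and 36.3 FPKM against 14.3, 14.9 and 14.5 FPKM (-1.30, adjusted p = 0.000196). None of these genes overlapped between the groups, which the rule for naming them required, and all 4 were called in every fit that left out a library.

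*C3*, the central component of complement, had 5.99, 6.65 and 7.14 FPKM in A1 and 0.92, 1.92 and 2.20 FPKM in A3 (log2 fold change -1.53, SE 0.20, adjusted p = 0.00268 in limma). It had 0.967 and 0.922 FPKM in Aal, and so was highest in A1. *Hoxb13*, *Fbxo2*, a subunit of a ubiquitin ligase for glycoproteins, and *Lsp1*, an actin-binding protein of leukocytes, were likewise highest in A1, with log2 fold changes of -1.40, -1.39 and -1.19. *Col6a2*, a chain of collagen VI, had -1.31. *Chd1*, a chromatin remodeller bound to active genes, had 11.7, 11.5 and 12.4 FPKM in A1 and 5.39, 4.23 and 4.40 FPKM in A3 (-1.18, adjusted p = 0.000839). *Themis2*, *Rasl10b*, a small GTPase, and *Igtp*, an interferon-induced GTPase, had log2 fold changes of -1.27, -1.24 and -1.18. *Lsp1* and *Igtp* were called in only 1 of the 6 fits that left out a library, *Fbxo2* in 2 and *Col6a2* in 3. *C3* and *Hoxb13* were called in 4, and *Chd1*, *Themis2* and *Rasl10b* in all 6.

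**Figure D3:**
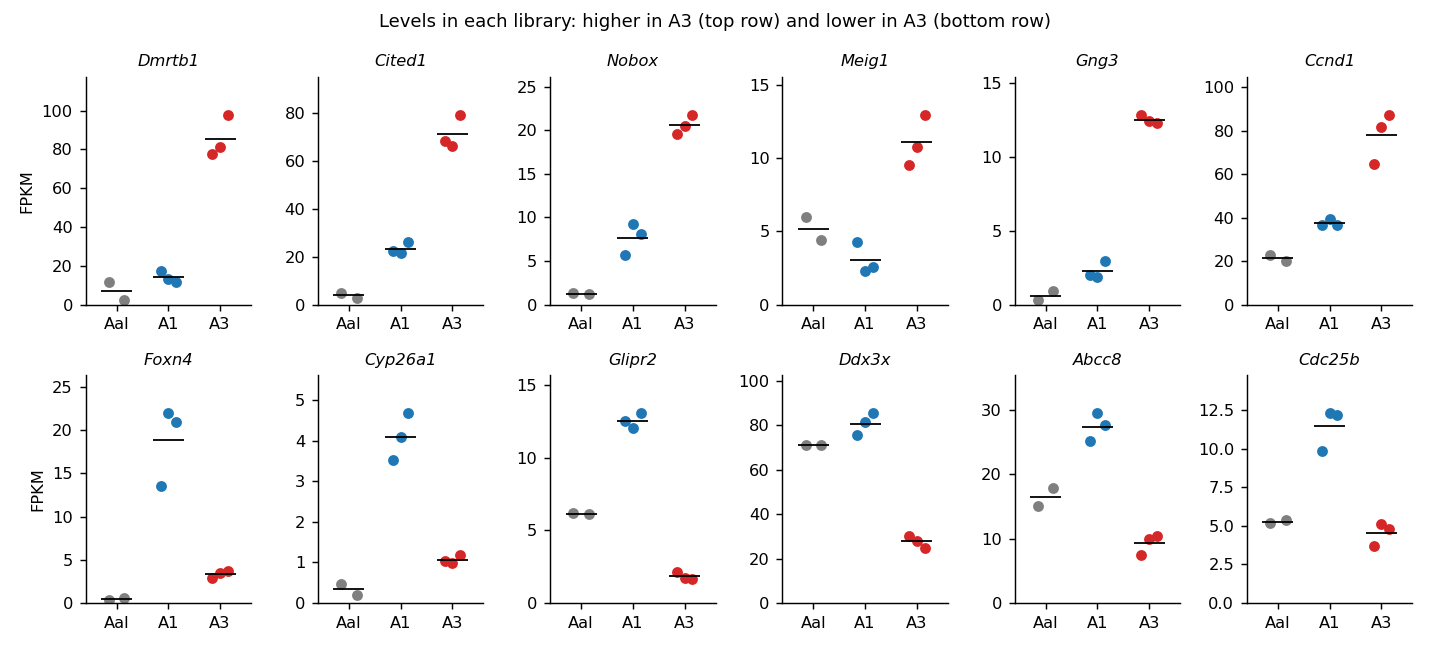
FPKM of 12 called genes in each library (points) with the group mean (line), each axis starting at 0; the top row was higher and the bottom row lower in A3. *Cited1*, *Nobox* and *Ccnd1* increased in level at both steps, whereas *Foxn4* and *Cyp26a1* were high in A1 (4.67 FPKM at most for *Cyp26a1*) and low in both Aal and A3.

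The functions behind the smaller changes were described with 28 function lists and a list of the dissociation response, which together had 560 different members among the genes tested. Of these, 40 were higher and 73 lower in A3 at an adjusted p of at most 0.05, beside 7.95% higher and 11.5% lower over all genes tested. The shares over all genes are the background for every list below, and a list with counts near them shows no change particular to its function. The median log2 fold change over all members was 0.01, the same as over all genes. In the following, a member is said to have risen or fallen where it passed that threshold in limma. Since genes of intermediate change are absent from the table, the counts of members that did not pass lack such genes too, and genes near 1 FPKM entered the test through the group in which they were higher. Of the members named below, *Cntd1*, *Ddx24*, *Dnaja3*, *Dnajb11*, *Dnajc9*, *Epcam*, *H2-Q4*, *Henmt1*, *Inpp5d*, *Mthfd1l*, *Ncapd3*, *Pik3r1*, *Rhox2c*, *Rpl17*, *Sox10* and *Tgm2* did not pass without A1-3, with adjusted p-values from 0.0528 (*H2-Q4*) to 0.0909 (*Epcam*), and *Hoxb2* was not tested there.

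**Figure D4:**
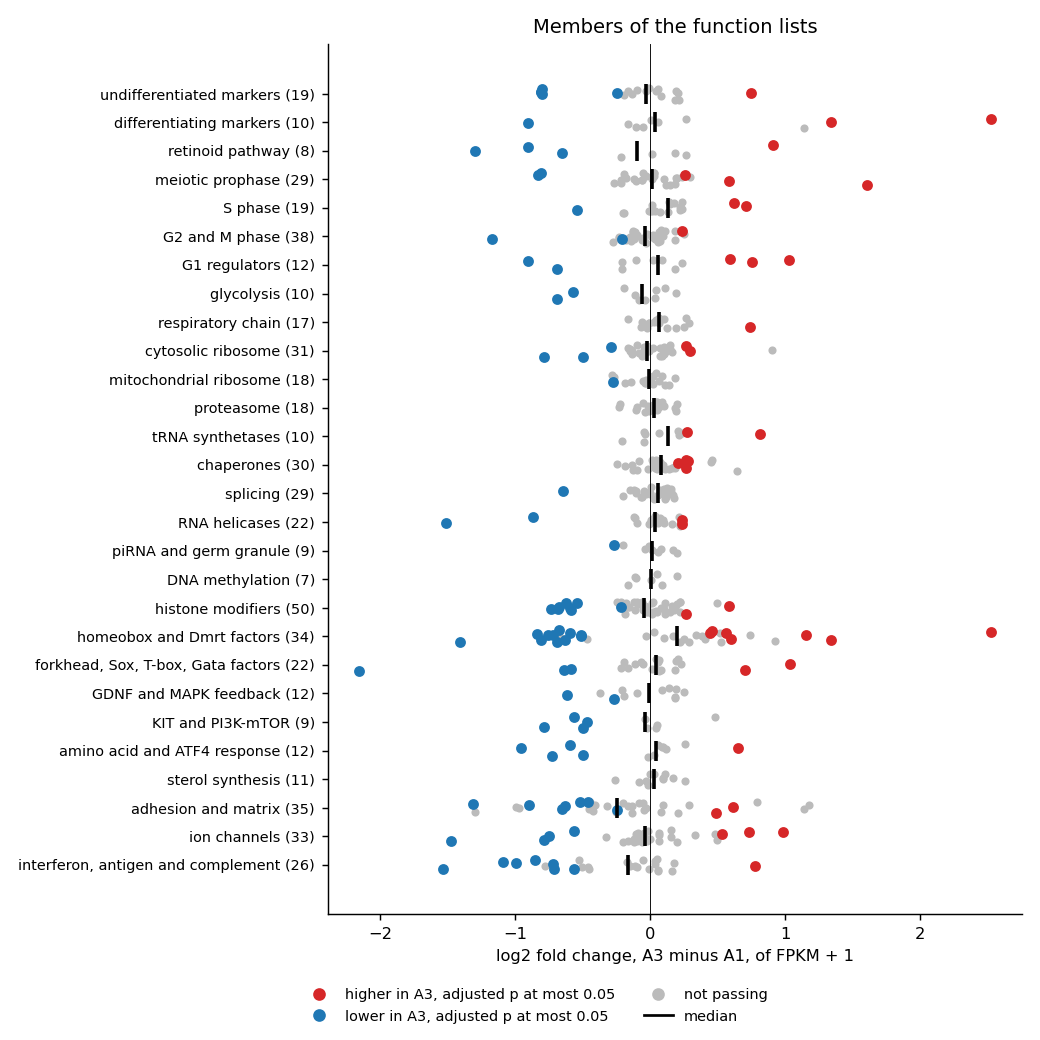
Log2 fold change between A1 and A3 of the members tested in 28 lists, with the number of members in brackets; red and blue points passed an adjusted p of at most 0.05, grey points did not, and black lines are medians. Most medians lie near 0, and the homeobox and Dmrt list holds both *Dmrtb1* (2.52) and 11 lower members.

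Among markers of stem and progenitor spermatogonia, 5 of 19 tested members fell and 1 rose, with a median log2 fold change of -0.03. *Pou5f1*, a pluripotency factor, had 14.4, 13.7 and 11.3 FPKM in A1 and 6.77, 7.69 and 6.75 FPKM in A3 (log2 fold change -0.81, adjusted p = 0.00329), after 23.5 and 25.7 FPKM in Aal. *Neurog3*, a basic helix-loop-helix factor of progenitors, went from 13.7, 14.5 and 13.3 FPKM to 6.82, 9.33 and 6.66 FPKM (-0.80, adjusted p = 0.00533). The chromatin-associated factor *Utf1* and the pyrimidine salvage enzyme *Upp1* also fell (-0.81 and -0.80), and *Epcam*, an adhesion molecule, fell by 0.25 on the log2 scale. The rising member was *Nefm*, a neurofilament subunit that overlaps *Nefl* on the other strand (0.75). *Id4* and *Nanos2*, markers of stem cells, had 9.67, 6.11 and 4.42 and 2.44, 1.68 and 1.44 FPKM in A1 and 9.57, 6.31 and 7.13 and 1.43, 1.24 and 2.15 FPKM in A3. Their groups overlapped, with adjusted p-values of 0.630 and 0.675.

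In the list of differentiating markers, 2 of 10 tested members rose and 1 fell. The risers were *Dmrtb1* and *Nobox*. The member that fell was *Ccnd2*, cyclin D2, with 39.9, 31.2 and 34.2 FPKM in A1 and 18.3, 18.1 and 18.1 FPKM in A3 (log2 fold change -0.90, SE 0.09, adjusted p = 0.00106). *Ccnd2* and *Ccnd1* therefore changed in opposite directions. In the G1 list, 3 of 12 members rose (*Ccnd1*, *Gadd45b* and *E2f8*) and 2 fell (*Ccnd2* and *Rb1*). *Rb1*, the retinoblastoma protein that restrains entry into S phase, had 36.0, 38.5 and 40.3 FPKM in A1 and 25.6, 22.995 and 21.7 FPKM in A3 (-0.69, adjusted p = 0.00169). *Gadd45b*, a stress-induced growth regulator, had a log2 fold change of 0.75.

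Of the S phase genes, 2 of 19 rose and 1 fell, with a median of 0.13, which was 0.0225 without A1-3 and no longer above 0 without A3-1. *Pold2*, a subunit of DNA polymerase delta, had 50.7, 48.2 and 43.6 FPKM in A1 and 79.8, 73.5 and 81.7 FPKM in A3 (log2 fold change 0.71, adjusted p = 0.00111). *Gins2*, part of the replicative helicase, rose by 0.62 and *Pola1*, the catalytic subunit of DNA polymerase alpha, fell by 0.54. Of the G2 and M phase genes, 1 of 38 rose and 2 fell, with a median of -0.04. *Cdc25b*, the phosphatase that activates CDK1 at mitotic entry, had 9.88, 12.3 and 12.2 FPKM in A1 and 3.72, 5.13 and 4.81 FPKM in A3 (-1.17, SE 0.13, adjusted p = 0.00184). It was the only called gene of the S and G2 and M lists, and in A3 it lay just below Aal (5.16 and 5.35 FPKM). It overlaps *Spef1* on the other strand. *Cenpn*, a kinetochore protein, and *Ncapd3*, a condensin subunit, had changes of 0.23 and -0.21.

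In the retinoid pathway, 1 of 8 tested members rose and 3 fell, with a median of -0.10. *Cyp26a1* was the called member. *Tgm2*, a transglutaminase induced by RA, had 2.06, 2.71 and 3.67 FPKM in A1 and 1.56, 1.46 and 1.17 FPKM in A3 (log2 fold change -0.65, adjusted p = 0.0348, and 0.06 without A1-3). *Dhrs3*, which reduces retinal back to retinol, had 1.25, 1.04 and 2.31 FPKM in A1 and 3.64, 3.68 and 3.68 FPKM in A3 (0.91, adjusted p = 0.0137). Its A1-3 value was the highest of A1, as was the Sertoli sum of that library; the part of Sertoli transcripts in this rise was not tested.

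Of the meiotic prophase genes, 3 of 29 rose and 2 fell, with a median of 0.01. Among the rises were those of *Meig1* and of *Cntd1*, a cyclin-like protein of crossover formation (log2 fold change 0.59). The falls were those of meiotic cohesin subunits. *Rec8* had 23.8, 32.1 and 29.0 FPKM in A1 and 14.9, 17.1 and 15.1 FPKM in A3 (-0.80, adjusted p = 0.00371), and *Rad21l* had 9.09, 10.2 and 11.02 FPKM in A1 and 5.76, 4.94 and 5.04 FPKM in A3 (-0.83, adjusted p = 0.00269). *Dmc1*, the meiotic strand exchange protein, had 22.96, 19.104 and 18.9 FPKM in A1 and 15.2, 20.9 and 17.5 FPKM in A3, with overlapping groups and an adjusted p of 0.365. *Rec8* stood above Aal in A3 (11.5 and 9.23 FPKM in Aal), whereas *Rad21l* stood below it (15.9 and 15.1 FPKM).

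Transcription factors of developmental families moved in both directions. Of 34 tested homeobox and Dmrt genes, 7 rose and 11 fell, against shares of 7.95% and 11.5% over all genes tested, and the median was 0.20. The median was 0.0747 without A3-3 and 0.131 without A1-1, and without A1-3 10 of 32 members rose and 11 fell, of which 6 and 2 were called. Among the rises called only without A1-3, *Dmrta1*, *Dmrtc1a* and *Rhox8*, a gene of the Sertoli list, were high in A1-3. It had 8.40, 3.77 and 7.35 times the mean of the other A1 libraries, against 1.47 for *Nkx1-2*. The part of Sertoli transcripts in these rises was not tested. *Hoxb13* had 3.96, 6.19 and 5.38 FPKM in A1 and 1.17, 1.40 and 1.36 FPKM in A3, and *Hoxa3* had 1.73, 2.22 and 1.79 against 0.81, 0.91 and 0.69 FPKM. *Hoxb2*, *Hoxb3* and *Hoxb4* fell from at most 1.98 FPKM in A1, and like *Hoxa3* they passed the filter on low values through A1 alone, the group in which they were higher. *Nkx1-2*, a homeobox factor, had 0.74, 1.13 and 1.38 FPKM in A1 and 2.47, 3.69 and 4.97 FPKM in A3 (log2 fold change 1.15, adjusted p = 0.0103). Of the X-linked *Rhox* genes, 2 of 5 rose and 1 fell; *Rhox2c* and *Rhox2h* are near-identical copies whose reads may be split between them.

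Of the forkhead, Sox, T-box and Gata genes, 2 of 22 rose and 3 fell. Beside *Foxn4*, the members that fell were *Foxo6* (log2 fold change -0.63) and *Sox3* (-0.58). *Tbx1*, a T-box factor of pharyngeal development, had 11.8, 19.7 and 17.8 FPKM in A1 and 26.1, 36.2 and 41.7 FPKM in A3 (1.04, adjusted p = 0.015), after 1.42 and 0.388 FPKM in Aal. *Sox10*, a factor of the neural crest, rose by 0.71 but had its highest values in Aal (16.2 and 18.5 FPKM).

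Of 50 tested histone modifiers, 8 fell and 2 rose, with a median of -0.04. *Ezh2*, the methyltransferase of Polycomb complex PRC2, had 24.8, 24.7 and 25.6 FPKM in A1 and 17.5, 13.4 and 13.3 FPKM in A3 (log2 fold change -0.74, SE 0.11, adjusted p = 0.00407). *Rnf2*, the ubiquitin ligase of Polycomb complex PRC1, had 30.4, 34.6 and 39.0 FPKM in A1 and 19.7, 23.1 and 20.9 FPKM in A3 (-0.68, adjusted p = 0.00448). *Kdm2b*, which recruits PRC1 to CpG islands, and *Phf8*, a histone demethylase encoded on the X chromosome, had changes of -0.68 and -0.62. *Kmt2d*, *Phf2*, *Phf6* and *Kat6a* were the other members that fell. No member of the DNA methylation list (7 tested) passed; *Hells*, a remodeller needed for DNA methylation, had 259, 274 and 280.0 FPKM in A1 and 312, 290 and 263 FPKM in A3 (adjusted p = 0.468).

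Of 9 tested genes of KIT and PI3K-mTOR signalling, 4 fell and none rose, with a median of -0.03. These were catalytic and regulatory subunits of PI3-kinase and a phosphatase of its product. *Pik3cd* had 15.4, 16.0 and 13.9 FPKM in A1 and 10.1, 7.00 and 8.28 FPKM in A3 (log2 fold change -0.78, adjusted p = 0.00588), and *Pik3ca*, *Pik3r1* and *Inpp5d* had -0.56, -0.50 and -0.47. Without A1-3, *Pik3r1* and *Inpp5d* had adjusted p-values of 0.059 and 0.0624, and *Ddit4l*, an inhibitor of mTOR signalling, rose (0.69, adjusted p = 0.0171), so that 2 fell and 1 rose. Of 12 genes of GDNF and MAPK signalling, *Sos1*, a Ras exchange factor (-0.61), and *Map2k1*, the kinase MEK1 (-0.27), fell and none rose.

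Among 26 tested genes of interferon response, antigen presentation and complement, 7 fell and 1 rose, with a median of -0.16. *Oasl2*, an interferon-induced protein, had 22.2, 21.0 and 23.8 FPKM in A1 and 11.4, 9.67 and 9.003 FPKM in A3 (log2 fold change -1.09, SE 0.10, adjusted p = 0.000839). *Stat2* and *Irf8*, transcription factors of interferon signalling, had -0.85 and -0.72, and *H2-Q4*, of a multigene family of MHC class I molecules, had -0.99. *Irf7* rose by 0.78. The macrophage and leukocyte marker sum was 8.04, 5.51 and 18.0 FPKM in A1 and 7.06, 8.22 and 6.25 FPKM in A3, and 5 members of the interferon list still fell without A1-3. The part of such cells in these changes was not tested.

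Of 35 tested adhesion and matrix genes, 7 fell and 2 rose, with a median of -0.25. *Col6a2* was called, and *Cdh5*, the cadherin of endothelium, had 3.15, 2.76 and 3.79 FPKM in A1 and 1.39, 1.27 and 1.12 FPKM in A3 (log2 fold change -0.90, adjusted p = 0.00421). The sum of 6 endothelial markers was 7.24 to 9.83 FPKM in A1 and 3.90 to 4.91 FPKM in A3, and 2 of 3 tested, *Cdh5* and *Tek*, fell; the part of endothelial cells was not tested. *Itga6*, the integrin alpha 6 subunit used to enrich spermatogonia, had 19.23, 16.9 and 19.6 FPKM in A1 and 13.3, 11.2 and 10.5 FPKM in A3 (-0.63, adjusted p = 0.00628). *Col6a4* fell by 0.65. Of 33 ion channel genes, 3 rose and 4 fell, near the shares of 7.95% and 11.5% over all genes tested. Beside *Abcc8*, the calcium channel subunit *Cacna1a* (-0.79) and the sodium channel *Scn8a* (-0.75) fell, and *Cacna2d3*, a further calcium channel subunit, rose (0.98).

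The lists of protein synthesis, folding and degradation changed little. Of 30 chaperone genes, 4 rose and none fell, with a median of 0.08, and the changes were small. *Hspd1*, the mitochondrial chaperonin, had 129.3, 139 and 136 FPKM in A1 and 166, 169 and 157 FPKM in A3 (log2 fold change 0.28, adjusted p = 0.0117). *Dnaja3*, *Dnajb11* and *Dnajc9*, co-chaperones, had 0.26, 0.26 and 0.20. Of 10 tRNA synthetases, *Pars2* (0.82) and *Kars* (0.27) rose. Of 31 cytosolic ribosome genes, 2 rose and 3 fell. *Rpl22l1*, a paralog of a ribosomal protein, had 50.7, 50.2 and 55.8 FPKM in A1 and 29.1, 32.0 and 28.4 FPKM in A3 (-0.79, adjusted p = 0.000839), after 130.2 and 121 FPKM in Aal. *Rpl3l* had -0.50, *Rpl17* -0.29 and *Rpl7l1* 0.29; many ribosomal genes have processed copies that can share reads. Of 18 mitochondrial ribosome genes *Mrps36* alone passed (-0.28), and none of 18 proteasome genes did (*Psmb1*, the most abundant, had -0.10).

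Of 22 RNA helicases, 2 rose (*Ddx21* and *Ddx24*, at 0.24 and 0.23) and 2 fell (*Ddx3x* and *Dhx58*, a sensor of viral RNA, at -0.86). *Hnrnpa0* alone changed of 29 splicing genes (-0.65) and *Henmt1*, which methylates piRNA ends, alone of 9 piRNA and germ granule genes (-0.27). In glycolysis, *Aldoa*, the aldolase, had 135, 168 and 160.2 FPKM in A1 and 102, 88.7 and 94.5 FPKM in A3 (log2 fold change -0.69, adjusted p = 0.00319), *Ldha*, lactate dehydrogenase A, had -0.57, and the other 8 of 10 did not pass. *Ndufa4l2* rose (0.74) and no other of 17 respiratory chain genes passed. Of 12 genes of the amino acid and ATF4 response, *Slc1a4*, *Cebpb*, *Trib3* and *Mthfd1l* fell (-0.95, -0.73, -0.60 and -0.50) and *Phgdh*, the first enzyme of serine synthesis, rose (0.65). None of 11 sterol synthesis genes passed (*Fdps*, -0.01), nor any of 4 dissociation response genes (*Hspa1b*, -0.01) or 2 spermatid genes (*Tssk1*, 0.16).

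Some abundant genes outside the lists were noted after their values were seen. The beta-tubulins *Tubb4b* and *Tubb5* moved in opposite directions. *Tubb4b* had 581, 657 and 601 FPKM in A1 and 853, 1004 and 1073 FPKM in A3 (log2 fold change 0.67, adjusted p = 0.00443), and *Tubb5* had 274, 306 and 302 FPKM in A1 and 162, 163 and 182 FPKM in A3 (-0.79, adjusted p = 0.000839). In Aal they stood at 235 and 217 and at 256 and 252 FPKM. *Txnip*, an inhibitor of thioredoxin and of glucose uptake, had 129.3, 118 and 129 FPKM in A1 and 90.1, 79.8 and 78.1 FPKM in A3 (-0.60, adjusted p = 0.00189), after 294 and 298 FPKM in Aal.

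Leaving out A1-3 raised the number of called rises from 22 to 61, and that of called falls from 47 to 50. Of 4531 genes tested, 111 were then called (2.45%), with 1.35% called higher in A3. At an adjusted p of at most 0.05, 824 passed (18.2%), 371 higher (8.19%) and 453 lower (10.0%), against 365 and 527 with all libraries. The calls with and without A1-3 shared 61 genes, which is 61 of 69 and 61 of 111. The 8 calls lost were 2 rises and 6 falls, and the 50 gained were 41 rises and 9 falls. In all 41 gained rises A1-3 exceeded both other A1 libraries, and in 36 it was at least 2 times their mean. A rise is gained more readily where A1-3 lies above the other A1 libraries. These counts therefore follow largely from the selection and are a description.

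The gained rises were led by Sertoli cell genes, 11 of them members of that list. *Clu*, a secreted chaperone abundant in Sertoli cells, had 32.9, 30.1 and 220.2 FPKM in A1 and 219.6, 160 and 114 FPKM in A3. Its log2 fold change was 1.37 (adjusted p = 0.215) with all libraries and 2.30 (adjusted p = 0.00157) without A1-3. *Cst12*, *Cst9*, cystatins, and *Defb19*, a defensin, had 2.36, 2.10 and 2.32 without A1-3 and adjusted p-values of 0.239, 0.209 and 0.222 with it. *Mir7686*, counted from 3 to 24 reads per library, had 2.13. Of the 18 Sertoli genes tested, none passed an adjusted p of 0.05 with all libraries, at a median of 0.78, and 17 passed without A1-3, all higher in A3, at a median of 1.44. Since A1-3 was left out for its somatic transcripts, these values follow from that choice and are a description. Further gained rises were named after their values were seen; *Id2*, an inhibitor of basic helix-loop-helix factors (1.99), and *Gja1*, connexin 43 (1.79), were among them. In a fit with the mean of the Sertoli genes as a covariate, chosen after the data were seen and built from genes that are themselves tested, 58 of the 69 calls were kept. None of the 41 gained rises was called there, and none of the 9 gained falls either. That fit called 28 rises and 71 falls, against 22 and 47 without the covariate, so its effect was not confined to rises of Sertoli genes.

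Of the 9 falls gained without A1-3, those named by the rule changed little in size. *Shank3*, a scaffold protein, *Helb*, a DNA helicase, *Dpp9*, a peptidase, *Epc2*, a subunit of a histone acetyltransferase complex, and *Galnt2*, a glycosyltransferase, had log2 fold changes of -1.05, -1.03, -1.02, -1.01 and -1.01, against -0.96, -0.98, -0.98, -0.98 and -0.94 with all libraries. *Nkx1-1*, a homeobox gene named after its values were seen, was an exception, with 4.57, 4.34 and 1.32 FPKM in A1 and log2 fold changes of -0.66 with all libraries and -1.07 without A1-3. *Dmrtb1*, *Gng3*, *Cited1*, *Glipr2*, *Foxn4* and *Ddx3x* had log2 fold changes of 2.41, 2.20, 1.65, -2.23, -2.07 and -1.47 without A1-3 and were called in both fits. The Leydig cell marker *Fabp3*, a fatty acid binding protein, had 8.63, 9.32 and 10.4 FPKM in A1 and 18.0, 20.7 and 21.0 FPKM in A3 (1.00 with all libraries, 1.06 without A1-3). The sum of its list (5 genes) was 10.2, 10.4 and 20.8 FPKM in A1 and 20.5 to 24.4 FPKM in A3. Most of the sum in A3 was *Fabp3* itself, whereas in A1-3 *Fabp3* gave 10.4 of the 20.8 FPKM. The similar sums of A1-3 and A3 therefore came from different members. Of 3 tested members, only *Fabp3* passed an adjusted p of 0.05 with all libraries.

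**Figure D5:**
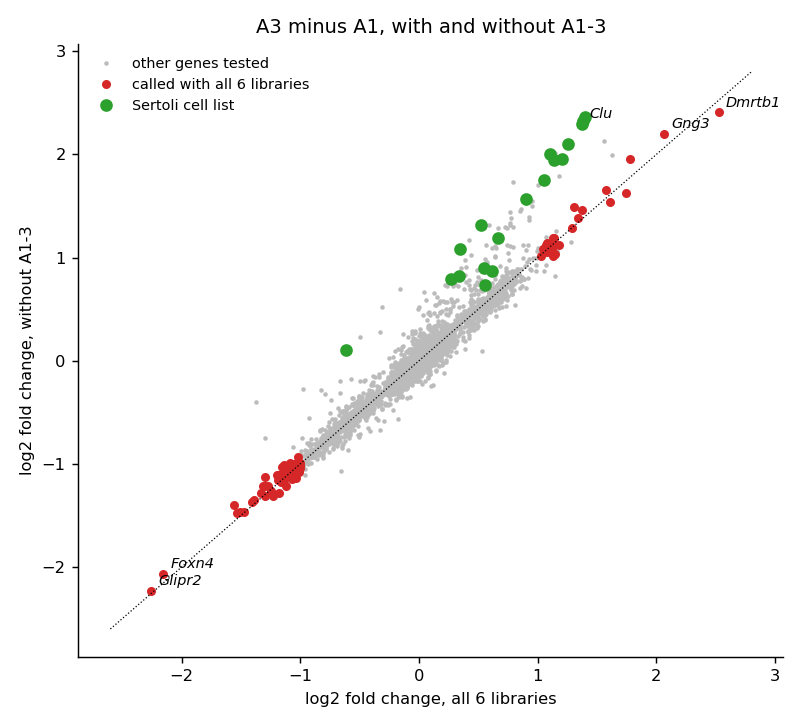
Log2 fold change between A1 and A3 with all 6 libraries (horizontal) and without A1-3 (vertical), for genes tested in both fits; green points are Sertoli cell genes, red points the genes called with all libraries, and the dotted line marks equal values. *Clu* moved from 1.37 to 2.30, whereas *Dmrtb1*, *Gng3*, *Foxn4* and *Glipr2* lay near the line.

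Position on the chromosomes was not used in the comparison. Of 170 X-linked genes tested, 10 rose (5.88%) and 25 fell (14.7%), against 7.70% and 11.7% of 3911 autosomal genes. Without A1-3, 20 of 167 X-linked genes rose and 19 fell (11.4%), against 7.77% and 10.2% of autosomal genes. The called X-linked genes were *Ddx3x*, which fell, and *Cited1*, *Gm1141* and *Gm9112*, which rose. Gene length, recovered from the FPKM values, differed between the directions. The median length was 2477 bases in the 365 genes that rose, 3312 bases in the 527 that fell and 2893 bases over all genes tested. In 5 classes of equal size from the shortest to the longest genes, the share that fell went from 8.61% to 15.1% and the share that rose from 10.6% to 5.01%. Without A1-3 the share that fell went from 8.27% to 11.9%, with 8.18% in the middle class. The share that rose then went from 12.1% to 4.98%. With limma voom on the recovered reads and all libraries, the corresponding shares went from 7.19% to 18.4% for falls and from 7.84% to 6.86% for rises. Rises in that fit were most frequent in the middle class (9.15%), and their median length was 2822 bases, near that of all genes tested. No test was made of these shares.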

How the data were processed

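RNA-seq was made from EGFP+ cells of synchronized testes; per the study's methods each library is a separate cell preparation. The authors trimmed reads with cutadapt 1.9, aligned them to mm9 with STAR 2.5.2b and counted them with featureCounts, and deposited FPKM values with 1 column per library; how counts became FPKM, which annotation was used and whether strand was used are not given in the sources used here. Of all values 100% were rebuilt from whole reads.

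Tested genes reached 1 FPKM in 2 or more of the 6 libraries. Their log2(FPKM + 1) values, with a pseudocount of 1, went into limma 3.58.1 under R 4.3.3, with lmFit and a trended eBayes, two-sided. The scale understates changes of genes with low FPKM. Groups came from sample titles. Positions come from GENCODE M1 on mm9, found by symbol for 5083 genes (88.6%). The tests were checked on simulated data. Replicates differed by a chi-square of 5.69 to 21.6 per gene, so each library counted as 1 sample.

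Members and lists were chosen with earlier results of these data known, and one entry was dropped from the ion channel list after the table was seen. Genes named are the 15 largest rises and falls among called genes without overlap and with a higher group mean of 5 FPKM or more, up to 4 passing members of each list, the study's markers, and, under the same conditions as the first rule, the 5 largest rises and falls gained without A1-3. Some genes meeting it are left out and not reported here. The alternatives were other pseudocounts, filters, scalings and fits, a replicate block, limma voom on recovered reads and leaving out each library; the Sertoli covariate, the direct repeat motif and the use of the most upstream RefSeq start were chosen after seeing the data.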

Additional observations from a re-analysis of the deposited data

How the results depend on the processing

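The count of called genes (69) was 152 with a pseudocount of 0.1, 199 with limma voom on recovered reads, 39 with the replicate block, and 26 to 111 when single libraries were left out; no filter, a filter of 5 FPKM, median-ratio and quantile scaling, all 8 libraries, no trend and the Sertoli covariate kept it between 52 and 99. The count at an adjusted p of at most 0.05 (892) was 531 with a filter of 5 FPKM, 593 with the replicate block and 405 to 1036 without single libraries. The count called without A1-3 (111) was 179 with a pseudocount of 0.1, 72 with a filter of 5 FPKM, 229 with voom, and 9 to 158 when a further library was left out; with A1-1 or A1-2 also left out, the lone A1 library is assumed to vary like A3. Members of the function lists that passed (113) numbered 73 with a filter of 5 FPKM and 76 with the replicate block. They numbered 55 to 133 without single libraries. Fewer genes entered the stricter filter and fewer samples the smaller fits; the cause of the other shifts was not tested. Rises were 22 of 69 calls, but 61 of 111 without A1-3, 44 of 107 without A3-1, 5 of 26 without A3-2 and 5 of 32 without A3-3. With a filter of 5 FPKM, some marker lists had no gene left and gave no median.

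The deviations of A1 and A3 libraries with the same number had correlations across genes of -0.11, 0.02 and -0.33. No pairs with unlike numbers were set beside them, so these values cannot decide whether libraries with the same number share a batch. The replicate block is given as an alternative for that reason. Of 1943 values of named genes under the alternatives, 1664 kept direction and call, 257 lost the call, 7 gained it and 15 reversed. The reversals were those of genes that did not pass. With quantile scaling *Hspa1b* (-0.01) had 0.0367 and *Dazl* (0.08) had -0.0417, and with the Sertoli covariate *Hspa1b* had 0.114 and *Nanos2* (-0.13) had 0.0152. When single libraries were left out, *Fdps* (-0.01) ranged from -0.124 to 0.0958 (0.0403 without A1-2, 0.0429 without A1-3), *Hspa1b* from -0.134 to 0.0716, *Uchl1* (0.07) from -0.12 to 0.303 (lowest without A1-3), *Id4* (0.20) from -0.0245 (without A1-3) to 0.465, *Sohlh2* (0.06) from -0.0358 (without A1-1) to 0.117 and *Nanos2* from -0.274 to 0.0112 (without A1-1).

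Depth limits genes near 1 FPKM, where single reads move the values, and the absence of genes of intermediate change from the table limits every count and share to the genes it holds.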
